A study of Mus musculus with 139 samples.

Results

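Inner hair cells (IHCs) from the base of the mouse cochlea were compared with IHCs from its middle. The members were the 53 cells that the labels call IHCs of these regions, 19 from the base and 34 from the middle, out of 139 single hair cells in the series. All mice were between postnatal days 14 and 16, and no strain, genotype, treatment, sex or animal is named in the sources used here, so how many animals each region stands for is unknown. The series asks how hair cells differ along the cochlear spiral, and also holds 34 apical IHCs and 52 outer hair cells (OHCs) that served only for scaling and as levels set beside the results. Sample titles carry a number, and each region holds cells numbered above 100 (7 basal, 13 middle) and up to 100 (12 basal, 21 middle). The labels do not say what the number stands for, and these are called the upper and the lower number series below. In the upper series the numbers of basal and middle cells interleave. In the lower series every basal cell has a higher number than every middle cell. Region and title number therefore cannot be told apart in the lower series, also where a difference is given for both series.

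IHCs are the receptor cells that turn sound vibration into signals of the auditory nerve. Channels at the tips of their stereocilia open with each vibration, the cell depolarises, calcium enters through CaV1.3 channels at ribbon synapses, and otoferlin couples that calcium to the release of glutamate. Calcium buffers, pumps and mitochondria clear the calcium and pay for the clearance. Cells at the base respond to high frequencies and cells at the apex to low ones, and basal hair cells are the ones most often lost with noise and age.

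Each group counts as 1 sample, because no animal is named and cells are not replicates. No test between the groups was therefore made, no p-value exists, and every difference below describes these cells. Counts of a group were summed and are given as CPM, counts scaled to a common library total, and a difference is log2 of the ratio of (CPM + 1), base over middle, which understates the difference of low genes. Levels in single cells are CPM of the cell's own total. Levels have exact Poisson intervals at 95%, which cover counting error only. Shares of cells have exact Clopper-Pearson intervals at 95%, which take the cells of a region as independent draws. Neither kind covers differences between animals, and neither measures a difference between the regions.

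Total counts ran from 2827490 to 12064320 per basal cell (median 6842128) and from 489277 to 13322238 per middle cell (median 6158035). Their medians were 7120620 in basal and 7554356 in middle cells of the upper series, and 6688977 and 3461676 in the lower one. Detected genes had medians of 7309 and 9891 in the upper series and of 9727.5 and 4689 in the lower one. Basal and middle cells of the lower series thus differed in depth and in title number as well as in region. The number of genes at 10 CPM or more per cell had a median of 4032 in basal and 5593 in middle cells of the upper number series, and of 1048 and 936 in the lower one. The upper series supplied 37.9% of all basal counts but 56.6% of all middle counts, so a gene that differs between the series can differ between the pooled regions. Otof, which encodes otoferlin, reached 10 CPM in 18 of 19 basal and 32 of 34 middle cells, and the labels and this defining marker go together in all but those 3 cells. A total of 7 cells stood apart, 4 basal and 3 middle: they had under 10 CPM of Otof, over 12000 detected genes or over 20% of their counts on 1 gene. A basal cell among them had 16.0% of its counts on mitochondrial genes. Leading values are given with and without these 7 cells, over the same genes except where the section on processing gives another number of genes.

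Many genes differed at least 2-fold between the pooled regions, but the differences of the number series were not correlated. Of 9430 genes with a mean of at least 5 CPM, 2287 (24.3%) were at least 2-fold higher in basal IHCs and 3184 (33.8%) at least 2-fold lower. Under size factors of DESeq2, which shifted the log2 ratios by a median of 0.38 towards the base, the split became 2789 higher and 2221 lower. These counts are of the 8794 genes that reached the mean of 5 CPM under that scaling. Which direction holds more genes thus depends on the scaling. With the further need of a 2-fold difference in the same direction in each number series, 463 genes (4.91%) were higher and 900 (9.54%) lower. Across the 9430 genes, the log2 ratios of the upper and the lower series had a Pearson correlation of 0.0017 and a Spearman correlation of -0.013, and 51.6% of the genes had opposite signs. These are correlations across genes, which are not independent of each other, and the 2 series share no cells. Most genes were read from few cells: the median gene had 58.1% of its basal counts in a single basal cell and 38.7% of its middle counts in a single middle cell. The median gene reached 10 CPM in 3 basal and 7 middle cells.

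**Figure D1:**
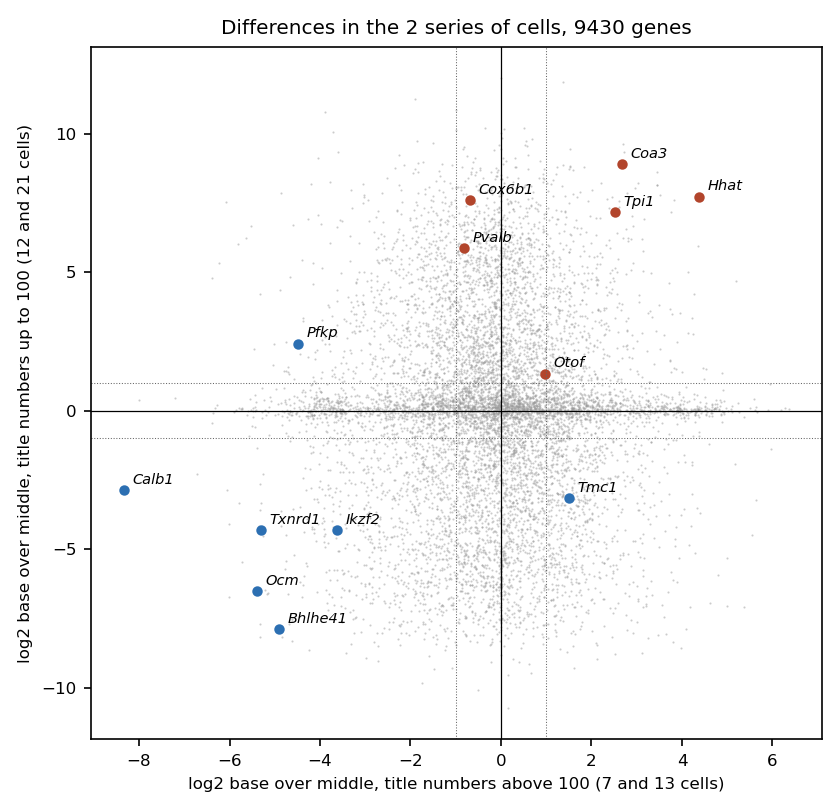
Each grey point is 1 of 9430 genes, with its log2 ratio of base over middle in the upper number series (x axis, 7 basal and 13 middle cells) and in the lower one (y axis, 12 and 21 cells); dotted lines mark 2-fold, and named genes are red where the pooled level was higher in the base and blue where it was lower. The cloud has no slope (Pearson correlation 0.0017), while Calb1, Ocm, Bhlhe41, Txnrd1 and Ikzf2 lie in the lower left and Coa3, Tpi1 and Hhat in the upper right.

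The calcium buffers Calb1 and Ocm had much lower pooled levels in basal IHCs, while Pvalb and Calb2 did not. Calb1 (chr4:15881264-15908064 in GRCm38, plus strand) encodes calbindin-D28k, a fast and mobile calcium buffer. Its level was 0 CPM in the lowest and in the median basal cell and 4.63 CPM in the highest, against 0, 1.70 and 1945 CPM in the lowest, median and highest middle cell. In the upper number series every basal cell lay below every middle cell, with 4.63 CPM in the highest of 7 basal cells and 43.5 CPM in the lowest of 13 middle cells. In the lower series only 2 of 21 middle cells and 0 of 12 basal cells reached 10 CPM, so there most cells of both regions lay near 0. Pooled, Calb1 stood at 0.433 CPM (interval 0.328 to 0.561) in the base and 483 CPM (480.2 to 486) in the middle. The log2 ratio was -8.40, with -8.32 in the upper and -2.86 in the lower series, and -8.36 without the 7 cells that stand apart. Apical IHCs, at 7.37 CPM, were nearer to the basal level than to the middle one.

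Across all 9430 genes, a separation of this kind was rare. In the upper series, 5 genes (0.053%) had every basal cell below every middle cell and 1 gene (0.0106%) had every basal cell above. In the lower series the numbers were 0 genes (0%) and 1 gene (0.0106%). These 7 genes were found by looking for separation and are named for that. Beside Calb1, the upper-series genes lower in basal cells were Atp2b2, Itga6, Tsku and Col1a2. Atp2b2 encodes PMCA2, the plasma membrane calcium pump of hair bundles. It ran from 0 to 60.2 CPM (median 22.3) in the 7 basal cells and from 142 to 1652 CPM (median 321) in the 13 middle cells of the upper series, but in the lower series the medians were 0.900 and 0.314 CPM and the regions overlapped. Itga6, an integrin subunit of laminin receptors, was separated by little, with 0.746 CPM in the highest basal and 0.794 CPM in the lowest middle cell, and so was Tsku, a secreted leucine-rich repeat protein, with 2.20 and 2.85 CPM. Col1a2, a collagen gene of connective tissue, ran from 99.3 to 5748 CPM in the middle cells and from 0 to 14.2 CPM in the basal ones, yet in the lower series its medians were 1186 CPM in basal and 2456 CPM in middle cells, and the regions overlapped there. The gene with every upper-series basal cell above was E230025N22Rik, and the lower-series gene was Cox6b1, described with the respiratory chain.

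Ocm (chr5:144019804-144026670, minus strand) encodes oncomodulin, a parvalbumin-type buffer best known from OHCs. The level of 10 CPM was reached in 1 of 19 basal cells (5.26%, interval 0.133 to 26.03%) and in 12 of 34 middle cells (35.3%, interval 19.8 to 53.5%). The highest basal cell had 23.7 CPM and the highest middle cell 2421 CPM, but the medians were 0 and 1.19 CPM, so most cells of both regions overlapped near 0. Pooled, Ocm was 1.30 CPM in the base and 139.7 CPM in the middle, a log2 ratio of -5.94, with -5.40 and -6.51 in the upper and lower series, although 62.1% of its middle counts came from 1 cell. Pvalb, which encodes parvalbumin, was higher in the pooled base, at 558 against 178 CPM. Its log2 ratio was -0.82 in the upper and 5.86 in the lower series, and 55.4% of its basal counts came from 1 cell. Calb2, which encodes calretinin, had nearly equal pooled levels of 289.9 and 259 CPM. It reached 10 CPM in all 19 basal cells (lowest 12.7, median 204, highest 1005 CPM) but in 21 of 34 middle cells (lowest 0, median 34.4, highest 1574 CPM). All 13 middle cells under 10 CPM of Calb2 belonged to the lower series, where 12 of 12 basal and 8 of 21 middle cells reached it.

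Of 24 described genes for calcium binding and transport, 3 were at least 2-fold higher and 9 at least 2-fold lower in the pooled base, beside 24.3% and 33.8% of all genes. The counts were 1 and 7 in the upper and 9 and 7 in the lower number series. Their median log2 ratio was -0.32, beside -0.24 for all genes, and it turned to 0.06 under the size factors of DESeq2. Slc8a1, the sodium-calcium exchanger NCX1, was 35.9 CPM in the base and 281 CPM in the middle, and reached 10 CPM in upper-series cells only (medians of 72.3 and 555 CPM there, 0.0561 and 0 CPM in the lower series, where the highest cell had 6.26 CPM). Atp2b1, which encodes PMCA1, was the most abundant pump in counts, at 4744 and 2544 CPM, with log2 ratios of -0.37 and 1.78 in the upper and lower series. Atp2a3, which encodes the SERCA3 pump and marks IHCs, had log2 ratios of 0.98 and 0.68, the same direction in both.

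Genes that are textbook markers of OHCs or of OHC identity were at least 2-fold lower in the pooled basal IHCs for 4 of 7 described members and at least 2-fold higher for 0, beside 33.8% of all genes lower and 24.3% higher. The counts were 0 higher and 4 lower in the upper series, and 1 higher and 3 lower in the lower one. In both number series 3 of the 7 were at least 2-fold lower, beside 9.54% of all genes, and the median log2 ratio was -1.87 (-1.57 without the 7 cells). Ikzf2 (chr1:69531214-69687245, minus strand), the transcription factor helios that drives the OHC programme, had a median of 0.388 CPM and a highest value of 23.5 CPM in basal cells, against 3.91 and 523 CPM in middle cells. At least 10 CPM were found in 1 of 19 basal and 12 of 34 middle cells, and 18 of 19 basal cells lay below or at the middle median. The pooled levels were 2.09 and 50.5 CPM, a log2 ratio of -4.06, with -3.62 and -4.31 in the upper and lower series. Of 12 listed OHC markers, only 7 reached the mean of 5 CPM needed to be described. Ikzf2 and Ocm were below 5 CPM in the base (2.09 and 1.30 CPM) and met this bound through the middle. Their place among the lower markers thus partly follows from the bound, which was the same for all genes. Sri, for sorcin, was 37.6 and 140.2 CPM, with log2 ratios of -1.40 and -3.79. Slc26a5, which encodes prestin, the motor protein that defines OHCs, was near 0 in both regions at 0.0608 and 1.44 CPM, and reached 10 CPM in 0 basal and 2 middle cells. In apical IHCs the pooled levels of Ikzf2, Ocm and Slc26a5 were 160.4, 298 and 48.3 CPM. Whether other cells' RNA has a part in these levels was not tested.

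Of 21 described transcription regulators, 5 were at least 2-fold higher and 7 lower in the base, near the shares of all genes. In both number series 5 were at least 2-fold lower, beside 9.54% of all genes: Ikzf2, Bhlhe41, Id1, Id2 and Rfx3. Id3 was the 1 that was higher in both, beside 4.91% of all genes. The median log2 ratio of -0.16 turned to 0.22 under the size factors of DESeq2. Bhlhe41 (chr6:145858243-145865558, minus strand) encodes a circadian repressor that binds the E-box CACGTG. Its level had a median of 0 CPM and a highest value of 47.8 CPM in basal cells, and of 0.141 and 3680 CPM in middle cells. In 1 of 19 basal and 11 of 34 middle cells it reached 10 CPM, and most cells of both regions lay near 0. Pooled, it stood at 3.75 and 256 CPM, with log2 ratios of -5.76 pooled, -4.91 in the upper and -7.89 in the lower series. Of its exon bases, 19.1% overlap the antisense gene Gm43909, and since the counting of strands is not given, reads there cannot be told apart. Id2, an inhibitor of basic helix-loop-helix factors, was 16.5 and 381 CPM (log2 ratio -4.44, and -3.31 and -8.42 in the series). Its relative Id3 went the other way, at 63.3 and 12.95 CPM, with log2 ratios of 2.18 and 5.69 and medians of 20.02 CPM in basal and 0.0463 CPM in middle cells.

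The promoter of Bhlhe41 is shown because it holds the motif that its own protein binds, at chr6:145865371-145865670 of GRCm38.p6 (RefSeq, minus strand, 5′ to 3′), with CACGTG in capitals.
Bhlhe41 promoter: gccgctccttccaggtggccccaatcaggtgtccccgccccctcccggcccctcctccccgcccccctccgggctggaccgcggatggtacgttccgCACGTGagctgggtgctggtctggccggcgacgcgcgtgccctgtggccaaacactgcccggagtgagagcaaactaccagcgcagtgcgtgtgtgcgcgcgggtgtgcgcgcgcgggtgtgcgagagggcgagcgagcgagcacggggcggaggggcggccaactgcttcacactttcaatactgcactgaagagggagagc
The letters CACGTG, which read the same on both strands, occur in 1957 of 27025 RefSeq promoters of this length (7.24%) and in 708 of 6930 that belong to described genes (10.2%). They occur in 4 of the 11 promoters found for the 12 low genes named next (Bhlhe41, Prkcsh, Ralb and Sfxn2) and in 1 of the 10 found for the 12 high genes named further on (Hsph1). The promoters of Coa3 and Ldha, which are described further on and were higher in the pooled base, hold these letters too. A match is a description of the letters and not a site.

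A rule of size, which needs among other things a 2-fold pooled difference and the same sign in each number series and without the top cell, was met by 629 genes that were lower in the base and 380 that were higher. The 12 lower genes ranked first were Tomm5, Ocm, Bhlhe41, Kcna2, Itga6, Dhx16, Gtf3c3, Txnrd1, Prkcsh, Sfxn2, Ptpre and Ralb. Their pooled levels were between 0.167 and 3.75 CPM in the base and between 34.1 and 256 CPM in the middle. Txnrd1 (chr10:82833951-82897712, plus strand), the cytosolic thioredoxin reductase, was at most 1.35 CPM in any basal cell, against a median of 5.38 and a highest value of 425 CPM in middle cells. It reached 10 CPM in 0 of 19 basal cells (interval 0 to 17.7%) and 14 of 34 middle cells (41.2%, interval 24.7 to 59.3%), and no basal cell lay above the middle median. Tomm5, a subunit of the import pore of the outer mitochondrial membrane, was at most 1.06 CPM in basal cells and reached 10 CPM in 13 middle cells. Kcna2, a voltage-gated potassium channel, and Ralb, a small GTPase, reached 10 CPM in 0 basal cells each and in 9 and 12 middle cells. Dhx16 is a splicing helicase, Gtf3c3 a subunit of the RNA polymerase III factor TFIIIC, Prkcsh a glucosidase subunit of the endoplasmic reticulum, Sfxn2 a mitochondrial carrier and Ptpre a receptor-type phosphatase. Of these, Gtf3c3 was the only one at 10 CPM or more in basal cells, in 3 of them, and the middle cells at that level numbered between 6 and 11 for each of the 5 genes.

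A comparison by number of cells, chosen after the values were seen, asked which genes reached 10 CPM in fewer basal than middle cells in both number series. Of 8197 genes, 64 (0.781%) did so by at least 25 percentage points in each series, and 15 (0.183%) by as much in the other direction. In the upper series alone the numbers were 1891 fewer and 464 more, beside the lower number of genes per basal cell there, and in the lower series 299 and 355. The leading gene was Socs2, an inhibitor of cytokine and growth hormone signalling. It had a lowest, median and highest value of 0, 0.451 and 48.9 CPM in basal cells and of 0, 36.2 and 915 CPM in middle cells. It reached 10 CPM in 3 of 19 basal cells (15.8%, interval 3.38 to 39.6%) and 24 of 34 middle cells (70.6%, interval 52.5 to 84.9%), with 0 of 12 against 12 of 21 in the lower series. The pooled levels were 5.26 and 186 CPM. Yipf4, a Golgi membrane protein, and Pcmtd1, a protein with a methyltransferase-like domain, each reached 10 CPM in 4 basal and 24 middle cells. Ifngr1, the ligand-binding chain of the interferon-gamma receptor, did so in 1 of 19 basal and 18 of 34 middle cells, 9 from each series, and its median was 0 CPM in basal and 15.3 CPM in middle cells. Msi1, an RNA-binding protein, Arl5a, a small GTPase of the Golgi, Crim1, a membrane protein that binds bone morphogenetic proteins, and Tsc22d3, a glucocorticoid-induced regulator, completed the first 8, with 3 to 8 basal and 22 to 28 middle cells at that level. In each of the 8, some basal cells lay within the range of the middle cells. Apical IHCs had 454 CPM of Socs2 and 7.06 CPM of Ifngr1.

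**Figure D2:**
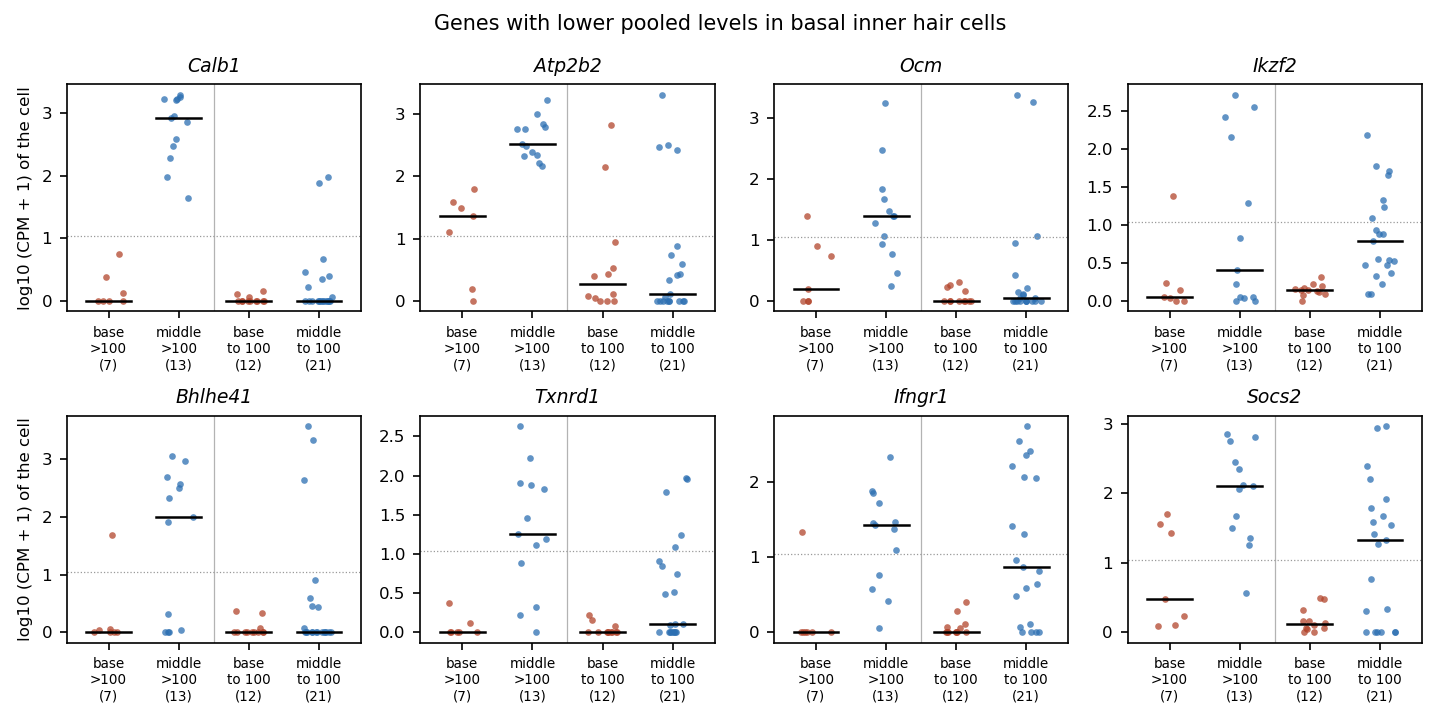
Each point is 1 cell, with log10 of its CPM + 1 on the y axis, and columns are basal and middle cells of the upper (>100) and lower (to 100) number series with the number of cells in brackets; bars are medians and the dotted line is 10 CPM. For Calb1 and Atp2b2 the 7 basal and 13 middle cells of the upper series do not overlap, and for Ifngr1 and Socs2 the middle cells above the dotted line come from both series.

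IHC marker genes were present in both regions, and Otof was the higher in basal cells. Otof (chr5:30367062-30461932, minus strand) had a lowest, median and highest value of 5.69, 5728 and 14552 CPM in basal cells and of 3.13, 3204 and 8928 CPM in middle cells. The regions overlapped, and 13 of 19 basal cells lay above the middle median. The pooled levels were 6506 CPM (interval 6492 to 6519) and 3445 CPM (3437 to 3453), a log2 ratio of 0.92, with 0.98 in the upper and 1.34 in the lower series and 1.32 without the 7 cells. Over 13 alternatives it stayed between 0.72 and 1.34. Slc17a8, the vesicular glutamate transporter VGLUT3, was 706 and 777 CPM with ratios of 0.75 and -0.58 in the series, so it had no common direction. Of 10 IHC markers, 0 were at least 2-fold higher and 2 at least 2-fold lower, beside 24.3% and 33.8% of all genes. The counts were 1 and 2 in the upper series and 4 and 3 in the lower one. The 2 lower in the pooled base were Rprm and Fgf8, which were read mainly in the upper series. Fgf8, a secreted growth factor of IHCs, reached 10 CPM in 1 of 7 basal and 11 of 13 middle cells there. In the lower series 1 of 12 and 0 of 21 cells reached 10 CPM. Chrna9, an acetylcholine receptor subunit of the efferent synapse, reached it in 1 of 7 and 11 of 13 cells of the upper series, and in 0 of 12 and 0 of 21 of the lower one.

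At the ribbon synapse, Cacna1d, which encodes the CaV1.3 channel, was 362 and 186 CPM in base and middle, with log2 ratios of 0.96 pooled, 0.96 in the upper and 2.48 in the lower series. The medians of single cells were nearly equal, at 9.46 and 9.86 CPM, and 9 of 19 basal and 17 of 34 middle cells reached 10 CPM. Ctbp2, whose transcripts also encode the ribbon protein RIBEYE, was 65.6 and 47.8 CPM with ratios of -0.39 and 1.14. Of 19 genes of the ribbon synapse and calcium channel, 1 was at least 2-fold higher (Pclo, for the scaffold piccolo) and 5 were at least 2-fold lower (Rims1, Cacnb2, Gipc3, Nrxn3 and Cacnb3), beside 24.3% and 33.8% of all genes. Without the 7 cells that stand apart 5 were higher and 4 lower, as also in the upper series, and in the lower series 5 were higher and 7 lower. Their median log2 ratio of -0.15 turned to 0.24 under the size factors of DESeq2. Among 45 genes of SNAREs and the vesicle cycle, 8 were higher and 13 lower, both below the shares of all genes (24.3% and 33.8%). The counts were 6 and 16 in the upper series, and 19 and 14 in the lower one. At least 2-fold lower in both series, beside 9.54% of all genes, were 8 of the 45 (Snap25, Napb, Vamp3, Rab27a, Stx7, Sypl, Syt4 and Rab27b). Snap25, a SNARE of the plasma membrane, was 180.4 and 955 CPM, and reached 10 CPM in 7 of 19 basal and 23 of 34 middle cells. Syt4, a synaptotagmin, was 0.0304 CPM in the base with no basal cell over 0.335 CPM, and 105.6 CPM in the middle, where 5 cells reached 10 CPM. Of the 2 genes of the list at least 2-fold higher in both series, beside 4.91% of all genes, Sv2a, a vesicle glycoprotein, was 100.03 and 44.6 CPM.

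Of 10 described genes of the mechanotransduction complex, 3 were at least 2-fold higher in basal cells, near the share of all genes (24.3%), and 0 were lower, beside 33.8% of all genes. The counts were 4 higher and 0 lower in the upper series, and 5 higher and 3 lower in the lower one. Their median log2 ratio was 0.56 (0.88 without the 7 cells), beside -0.24 for all genes, and 0.82 and 1.04 in the upper and lower series. Pcdh15, which forms the lower part of the tip link, was 97.1 and 14.3 CPM. In the upper series, the only one with cells over 10 CPM, its medians were 255 CPM in basal and 24.1 CPM in middle cells. Loxhd1, a stereociliary protein needed for channel function, was 818 and 209 CPM, with a lowest, median and highest value of 0, 378 and 7647 CPM in basal and 0, 2.30 and 1040.5 CPM in middle cells. Its upper-series medians of 484 and 385 CPM were close, and the lower-series ones were 93.7 and 0.395 CPM. Tomt, which is needed to bring the channel to the bundle, was 21.3 and 6.11 CPM. Cib2, a calcium-binding subunit of the complex, was 2396 and 1341 CPM, with 16 of 19 basal cells above the middle median. Tmc1, the pore subunit, had ratios of 1.51 in the upper and -3.15 in the lower series and -0.35 pooled, and Lhfpl5 likewise had 1.39 and -5.82.

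Genes with the largest size ranks in the base were mostly read from few cells. The 12 included Cfap206, Hhat, Cep97, Arih1, Fam199x, Spata6, Fer1l5, Rasa3, Hsph1, Defb25 and Ldb3, with pooled levels of 22.5 to 289 CPM in the base and 0.167 to 16.2 CPM in the middle. The median basal cell had between 0.134 and 0.440 CPM of each of them, and between 3 and 8 of 19 basal cells reached 10 CPM. Hhat, an acyltransferase for hedgehog proteins, had 82.2% of its basal counts in 1 cell, and Fer1l5, a relative of otoferlin, had 94.1%. Hsph1, a cochaperone of the HSP70 machinery, reached 10 CPM in 6 basal and 3 middle cells, and Defb25, of the defensin family, in 8 and 4. In each of these 12 genes the regions overlapped at or near 0.

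Coa3 and Tspan17 were higher in basal cells by number of cells as well. Coa3 (chr11:101277968-101279114, minus strand) is an assembly factor of cytochrome c oxidase. Its lowest, median and highest values were 0.269, 20.5 and 3459 CPM in basal cells and 0, 0 and 28.3 CPM in middle cells. It reached 10 CPM in 15 of 19 basal cells (78.9%, interval 54.4 to 94.0%) and 5 of 34 middle cells (14.7%, interval 4.95 to 31.1%), and all 19 basal cells lay above the middle median. The pooled levels were 205 and 4.70 CPM, a log2 ratio of 5.17, of which 76.7% of the basal counts came from 1 cell. The ratio was 3.37 without the top cell of each region and 3.38 without the 7 cells. Of its exon bases, 9.26% overlap Cntd1 on the other strand. Tspan17 (chr13:54789377-54796776, plus strand), a tetraspanin that guides the protease ADAM10, reached 10 CPM in 15 of 19 basal and 10 of 34 middle cells. All 10 of these middle cells were of the upper series, where the medians of 49.3 and 44.7 CPM were close, while in the lower series they were 56.9 and 0 CPM. Other genes at 10 CPM in more basal cells in both series included Rab5b, an early endosome GTPase (9 of 19 and 5 of 34), Col11a1, a fibrillar collagen chain (11 and 8), Napa, the SNARE-disassembly adaptor alpha-SNAP (15 and 9), and Slc30a9, a zinc transporter (10 and 7). The rule on shares of cells with a read also named Cxxc5, Dgcr6 and Atp6v0e2 as higher and Cdon, Ddx24 and Plekhj1 as lower. Dgcr6 had a ratio of -1.43 in the upper and 8.28 in the lower series, and Napa had -0.15 and 5.95. Ddx24 had -2.20 and -0.63. Plekhj1, an adaptor-like protein, shares 24.9% of its exon bases with Sf3a2 on the other strand.

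**Figure D3:**
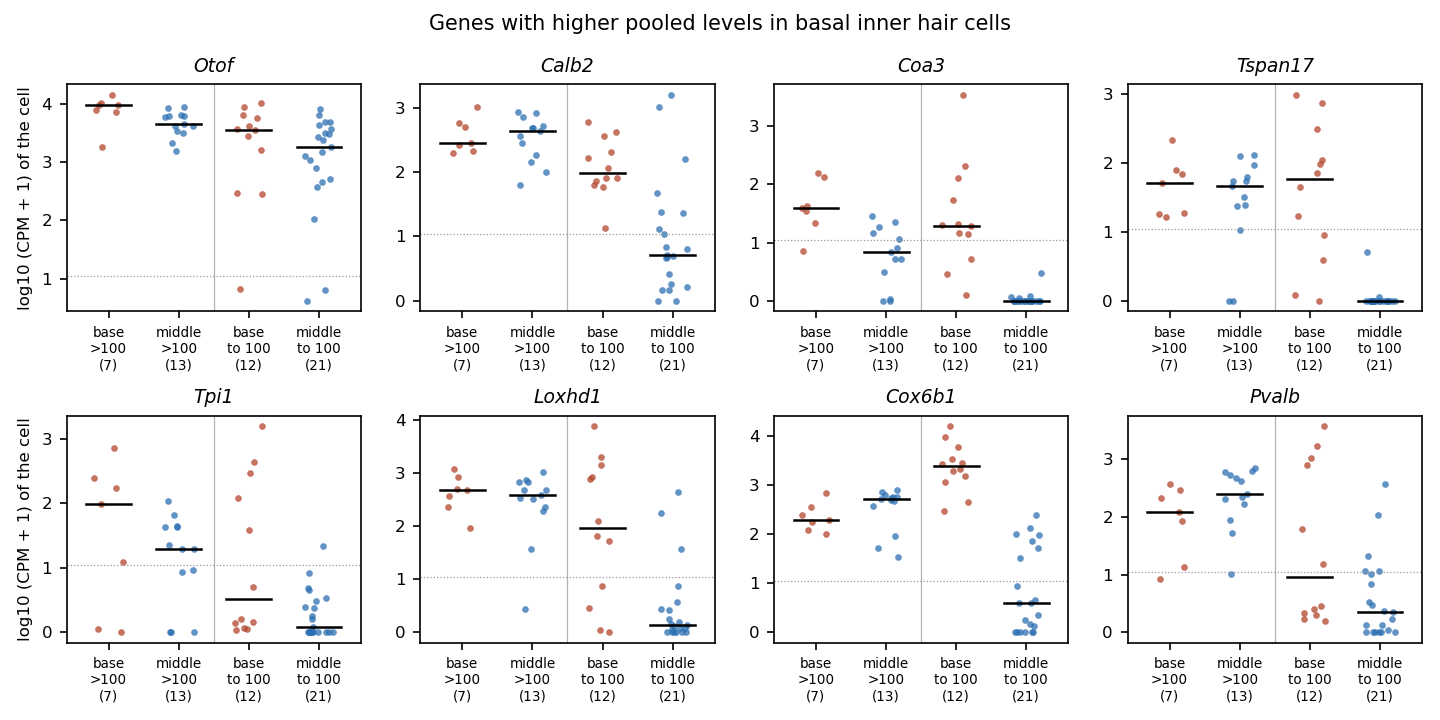
Axes and columns are those of the plot of genes lower in the base: 1 point per cell, log10 of CPM + 1, bars at medians, dotted line at 10 CPM. Otof overlaps between the regions with the higher median in the base, Coa3 is at or near 0 in most middle cells, and Cox6b1 separates the 12 basal from the 21 middle cells of the lower series while overlapping in the upper one.

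Genes of glucose breakdown had a higher median in basal cells than all genes did. Of 18 glycolysis genes described, 6 were at least 2-fold higher in the base (Tpi1, Ldha, Hk2, Ldhb, Hk1 and Pkm), and 1 was lower (Pfkp), beside 24.3% and 33.8% of all genes. In both series 3 were at least 2-fold higher, beside 4.91% of all genes. The median log2 ratio was 0.50 (0.81 without the 7 cells), beside -0.24 for all genes, and 0.78 and 2.39 in the upper and lower series. It kept this direction under each scaling, between 0.31 and 0.87. The summed level per cell ran from 8.50 to 5250 CPM in basal cells (median 1384) and from 1.56 to 3174 CPM in middle cells (median 249), and 16 of 19 basal cells lay above the middle median. The medians were 2766 and 1988 CPM in the upper series and 750 and 156 CPM in the lower one, and cells of both regions overlapped in each. Tpi1, triose phosphate isomerase, had a lowest, median and highest value of 0, 11.4 and 1561 CPM in basal and 0, 1.42 and 105.8 CPM in middle cells. Its pooled levels were 194 and 15.8 CPM, with log2 ratios of 3.54 pooled, 2.52 in the upper and 7.18 in the lower series. Ldha, lactate dehydrogenase A, was 82.7 and 12.3 CPM, but 72.5% of its basal counts were in 1 cell and 4 of 19 basal against 5 of 34 middle cells reached 10 CPM. Hk2, a hexokinase gene, had 97.0% of its basal counts in 1 cell and a ratio of -0.74 without the top cell of each region. Pkm, the pyruvate kinase gene, was 225 and 99.3 CPM and had ratios of 1.13 and 2.04. Gapdh reached 10 CPM in 10 basal and 11 middle cells, and Aldoc in 3 and 4. Eno2 had ratios of -0.87 in the upper and 6.72 in the lower series and turned to -0.89 without the 7 cells, and Pfkp had -4.48 and 2.43. The sources do not state how reads shared with pseudogene copies of these genes were counted.

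The summed level of the nuclear respiratory chain genes was higher in basal cells of the lower number series and lower in those of the upper one, by median. Region and title number go together in the lower series, and the part of each was not tested. Of 72 described, 16 were at least 2-fold higher and 19 lower, beside 24.3% and 33.8% of all genes. The counts were 10 and 17 in the upper series, beside 23.3% and 28.5% of all genes. In the lower series they were 41 and 13, beside 30.6% and 33.1%. In both series 2 were higher and 3 lower, beside 4.91% and 9.54%. The median log2 ratio was 0.17 pooled and turned to -0.02 without TMM scaling. It was -0.24 in the upper and 1.71 in the lower series. Their summed level had medians of 6573 CPM in basal and 8558 CPM in middle cells of the upper series, and of 9200 and 1206 CPM in the lower one. Cox6b1, a subunit of cytochrome c oxidase, ran from 298 to 15591 CPM (median 2390) in the 12 lower-series basal cells and from 0 to 244 CPM (median 2.89) in the 21 lower-series middle cells. In the upper series it ran from 98.2 to 683 CPM (median 196) and from 32.7 to 791 CPM (median 524), so the order of the medians was reversed. Uqcrq, of complex III, and Ndufb9, of complex I, had the same pattern, with lower-series medians of 405 and 5.03 CPM and of 460.3 and 0.345 CPM. The genes at least 2-fold lower in both series were Ndufc2, Uqcrfs1 and Cyc1, and those higher were Atp5j2 and Uqcrb. Cytosolic ribosomal protein genes likewise had a median ratio of -0.80 in the upper and 2.06 in the lower series.

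**Figure D4:**
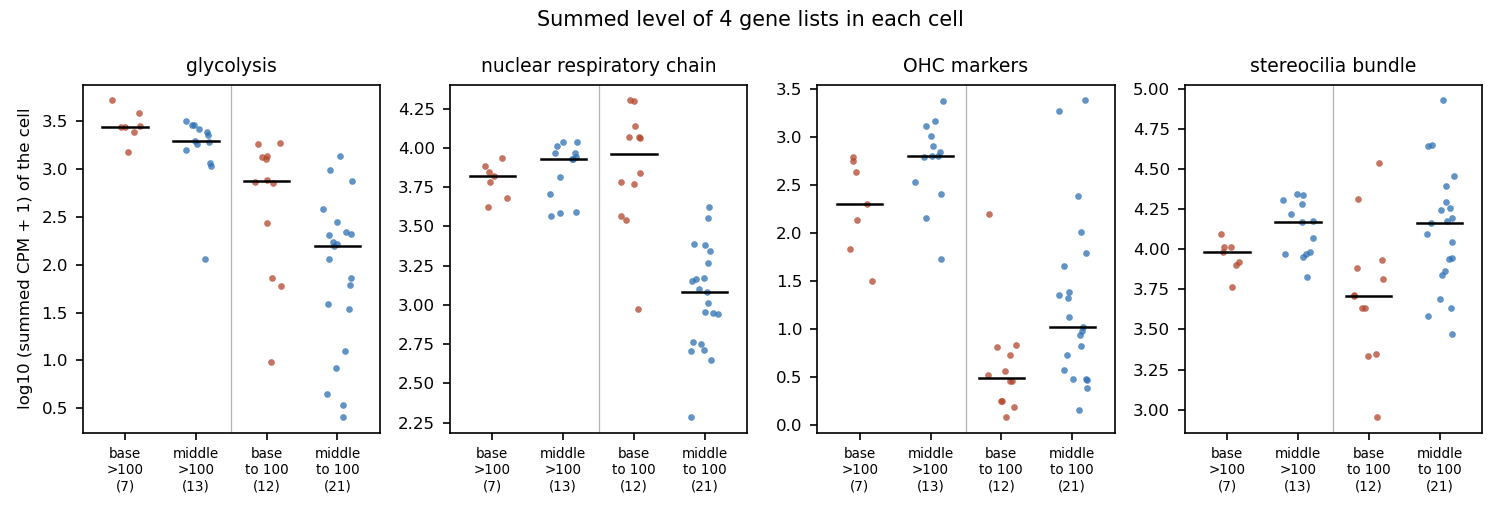
Each point is 1 cell, with log10 of its summed CPM + 1 over the genes of a list on the y axis, in columns of basal and middle cells of the upper (>100) and lower (to 100) number series; bars are medians. The medians of glycolysis are higher in basal cells in both series (2766 against 1988 CPM and 750 against 156 CPM), those of the respiratory chain in the lower series only, and those of OHC markers and stereocilia are lower in basal cells in both.

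Of 20 genes of antioxidant defence, 2 were at least 2-fold higher and 10 lower in the pooled base, beside 24.3% and 33.8% of all genes, with a median log2 ratio of -0.90 (-0.50 without the 7 cells, -0.43 under the size factors of DESeq2) and of -0.09 and -0.84 in the upper and lower series. In the upper series this was the median of all genes (-0.10) within 0.1, with 3 members higher and 5 lower, and in the lower series, where all genes had 0.03, 6 were higher and 10 lower. Txnrd1, Gpx3 and Cat were at least 2-fold lower in both series. Gpx3, the secreted glutathione peroxidase, had at most 4.30 CPM in any basal cell and reached 10 CPM in 0 basal and 10 middle cells. Cat, for catalase, was 24.2 and 71.7 CPM. Sod1, the abundant superoxide dismutase, was at 6599 and 9645 CPM, with 18 of 19 basal and all 34 middle cells at 10 CPM or more. Of 19 genes of apoptosis and p53, 4 were higher and 10 lower, beside the same shares of all genes, with a median of -1.05. The series gave 7 higher and 9 lower with a median of -0.65 (upper) and 5 higher and 8 lower with a median of -0.04 (lower). The survival genes Bcl2l1 (99.5 and 695 CPM) and Bcl2 (86.1 and 334 CPM) were at least 2-fold lower in both series, and Mcl1, also a survival gene, was at least 2-fold higher in both (123 and 45.5 CPM).

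Of 27 stereocilia genes, 6 were at least 2-fold higher and 5 lower, beside 24.3% and 33.8% of all genes. Their median of 0.17 was near 0 and turned to -0.02 without TMM scaling. Their summed level was lower in basal cells, with a median of 7599 CPM against 14700 CPM and 2 of 19 basal cells above the middle median. Actb, for beta-actin, an abundant member, had a lowest, median and highest value of 173, 2640 and 32165 CPM in basal and 695, 6781 and 77223 CPM in middle cells. Its medians were 1658 and 6137 CPM in the upper and 2743 and 9721 CPM in the lower series. Myo3a, a motor of stereocilia tips, Eps8l2, a regulator of actin growth, and Gnai3, a G protein subunit, were at least 2-fold higher in both series, and Capzb, an actin-capping subunit, was lower in both. Of 19 potassium channel genes, 4 were higher and 8 lower, beside 24.3% and 33.8% of all genes. The counts were 4 and 6 in the upper series and 8 and 5 in the lower one, with median log2 ratios of -0.10 and 0.51. Kcnma1, the BK channel that gives mature IHCs their fast current, was at 308 and 257 CPM, and reached 10 CPM in 11 of 19 and 22 of 34 cells. Its direction turned without the 7 cells, to a ratio of -0.10.

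**Figure D5:**
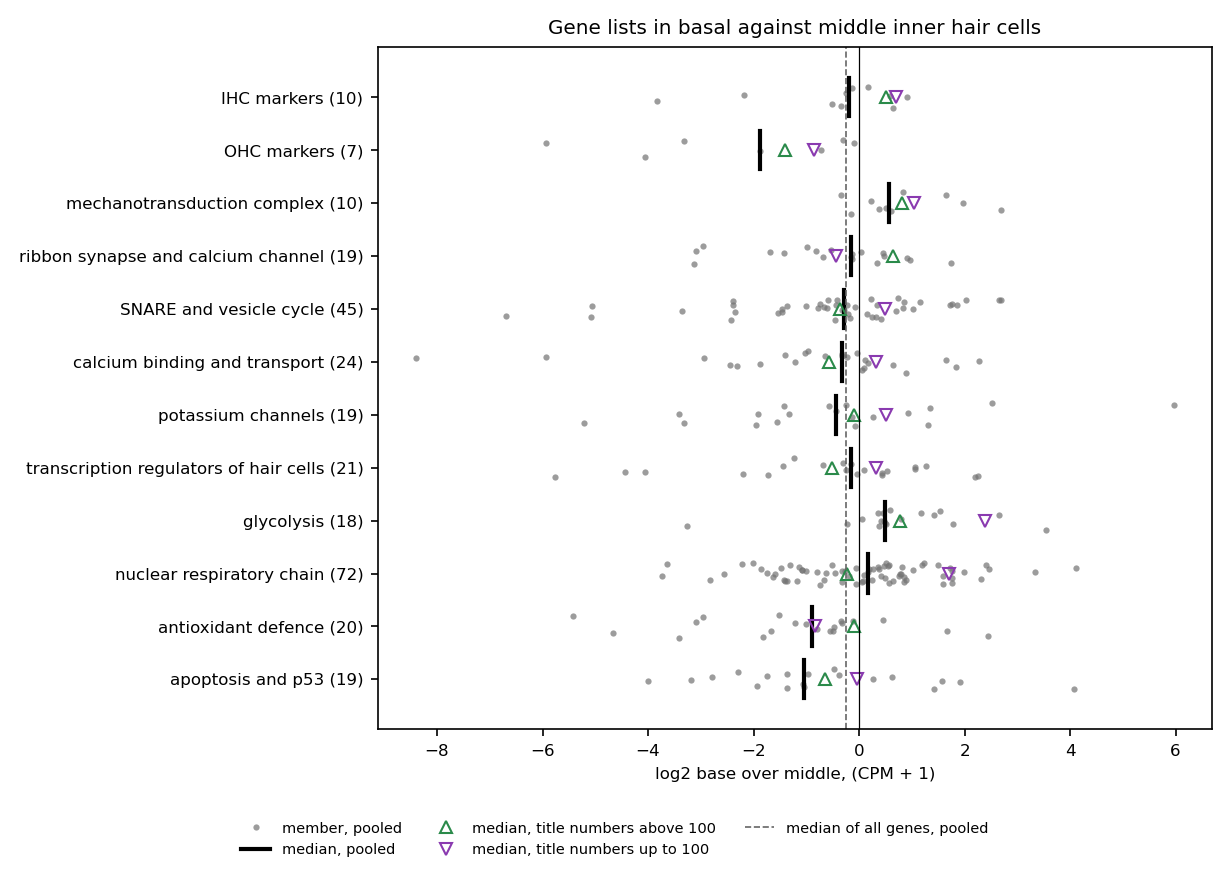
Grey points are the pooled log2 ratios, base over middle, of the described members of 12 gene lists (number in brackets), with bars at the pooled median and triangles at the medians in the upper (green, pointing up) and lower (purple, pointing down) number series; the dashed line is the median of all genes at -0.24. The medians of OHC markers lie at -1.87, -1.40 and -0.85 and those of glycolysis at 0.50, 0.78 and 2.39, while the nuclear respiratory chain has its series medians on both sides of 0.

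RNA of other cell types was present in both regions and differed between the number series. Haemoglobin Hbb-bs, a red blood cell gene that shares much of its sequence with Hbb-bt, was 2400.4 CPM in basal and 195 CPM in middle cells, with medians of 422 and 56.6 CPM. Of all genes, 24.3% were at least 2-fold higher and 33.8% lower in the pooled base, and the list counts here stand beside these shares. Of 12 neuron and glia genes, 5 were at least 2-fold higher and 1 lower. Their summed levels were 558 to 18670 CPM in basal and 76.3 to 19060 CPM in middle cells. Of 18 supporting cell genes, 2 were higher and 7 lower, with sums of 10.4 to 8441 CPM and 2.95 to 13890 CPM, and no listed member of either list had 0 counts over both regions. Of 10 mesenchyme and bone genes, 3 were higher and 1 lower in the pooled base. In the upper series 0 were higher and 5 lower, beside 23.3% and 28.5% of all genes. The median sums there were 1309 CPM in basal and 5278 CPM in middle cells. In the lower series 5 were higher and 1 lower, beside 30.6% and 33.1%, with median sums of 6052 and 5065 CPM. Of 7 blood and immune genes, 3 were higher and 2 lower, and among them S100a9, of neutrophils, was 116.4 and 561 CPM. The summed levels of that list ran from 39.8 to 23610 CPM in basal cells (median 891). In middle cells they ran from 0 to 120000 CPM (median 788), with the highest in a lower-series cell. The Y-linked gene Ddx3y had no read in any of the 12 lower-series basal cells, but reached 10 CPM in 6 of 21 lower-series middle cells and in 5 of 7 and 8 of 13 upper-series cells. The part of these cells and of the animals' sex in the differences above was not tested.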

How the data were processed

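The series has 139 samples, each 1 cell, in 1 file of 55335 gene lines whose values are unnormalized counts, as the authors deposited them. Trimmomatic, HISAT2, featureCounts and Subread 1.4.6 and the builds GRCm38 and mm10 are named per the submitters' processing notes; their roles are not spelled out. Whether counting used strand, kept reads with several hits or collapsed molecular identifiers is given by neither labels nor headers, and therefore overlapping genes and near-identical copies are uncertain. All columns were matched by title, with 0 unused. Identifiers were looked up in GENCODE M21 (54587 with version, 55154 without), and the 181 lines with no symbol took up 0.00885% of all reads. No 2 cells had identical columns.

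Counts were summed over the cells of each of the 6 groups (and of each group and number series, split at 100), scaled with TMM of edgeR 4.0.16 and given as CPM; the pseudocount was 1 CPM. Each group is 1 sample, so no test was run. For a gene with 0 counts, 3 counts would be the limit. The size rule named 12 protein-coding genes per direction, with at least 10 CPM in the higher group, reads in 50% of its cells, a log2 ratio of at least 1 pooled and in the mean of cells, at least 0.5 with the same sign in each series, and the same sign without the top cell, ranked by the smallest of these. A second rule named 5 per direction by the share of cells with a read after thinning each cell to 1514891 counts (percentile 10 of totals; 19 basal and 28 middle cells left). A further set of hair cell and glycolysis genes was always examined, and the 2 highest and 2 lowest members of each list could be named; other list members named were chosen after their values were seen. No doublet caller was run. The members, lists and rules were chosen with earlier results of these data known, and the bound of 10 CPM per cell, the comparison by number of cells, the search for separated genes and the 7 cells that stand apart were chosen after seeing the values. Alternatives were DESeq2 1.42.0 size factors, no TMM, other library sizes, equal weight per cell, thinning, fewer cells, each series alone or averaged, no filter and a pseudocount of 0.1 CPM. The steps were tested on simulated data. Python 3.11.15 and R 4.3.3 were used. Some genes are not reported here.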

Additional observations from a re-analysis of the deposited data

How the results depend on the processing

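The main counts were 2287 genes at least 2-fold higher and 3184 lower in the base. Under 12 of 13 alternatives each count stayed within 1.5 times of its main value. Without the 7 cells that stand apart, an alternative added after seeing the data, the counts were 2684 and 2774 of 9564 genes. Over the main 9430 genes, leaving out these cells gave 2520 and 2790. Without a filter on low levels they were 3736 and 5918, of 43465 genes. Thinned to equal depth the split was 2788 higher and 2589 lower, of 9142 genes. The median log2 ratio over all genes, -0.24, moved by over 0.1 under DESeq2 size factors (0.20), without TMM (-0.47), thinned (0.088), in cells with a read of both Otof and Slc17a8 (-0.13), without the 7 cells (0.029), in the upper series alone (-0.0046), averaged over the series (-0.041) and without a filter (-0.0041), so the sign of a ratio smaller than the 0.38 shift can depend on the scaling. Most of these medians are over the genes that passed the filter under that alternative. Over the main 9430 genes the median was -0.0058 without the 7 cells, -0.10 in the upper and 0.03 in the lower series. Leaving out cells under 100000 counts or 1000 genes removed 0 cells. Among values that were at least 2-fold, those that changed sign were Dgcr6 (-1.43) and Pvalb (-0.82) in the upper series, Pfkp (2.43) in the lower one, and the medians of the efferent synapse (0.018) and of pericytes and endothelium (0.030) without a filter, which adds members near 0; the cause of the others was not tested. Of the named genes' other values, 514 moved by at most 1.5-fold and 120 by more; of the list medians, 334 and 65. No paired analysis was possible because the labels do not say what the title numbers stand for and no result comes from a test.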

Other observations

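Some potassium channel genes were read mainly from 1 cell. Lrrc52, an auxiliary subunit of BK-type channels, was 106.7 CPM in basal and 0.718 CPM in middle IHCs, with 92.9% of the basal counts in 1 cell, and Kcnh7, an ERG-type channel, was 1.90 and 107.1 CPM, with 81.3% of the middle counts in 1 cell. Kcna10, a potassium channel of hair cells, was 52.02 and 8.21 CPM, with log2 ratios of 2.32 in the upper and 3.73 in the lower number series, and reached 10 CPM in 6 of 19 and 7 of 34 cells. Nr2f2, a nuclear receptor, was 88.1 and 295 CPM in base and middle and 777 CPM in apical IHCs.

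Of 7 mitochondrially encoded genes described, 2 were at least 2-fold higher in the pooled base and 0 lower, beside 24.3% and 33.8% of all genes. Without the 7 cells that stand apart, 0 were so in either direction, beside 26.7% and 29.6% of all genes. In the upper series 0 were at least 2-fold higher and 0 lower, and in the lower one 4 were higher and 3 lower. The summed level of the list had a median of 11960 CPM per cell in both regions. Within the series its medians were lower in basal cells, at 22920 against 25590 CPM in the upper and 5585 against 8576 CPM in the lower one.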
